A study of Homo sapiens with 12 samples.

Results

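The regions described here were the wide distal regions of ARID1A binding in RT112 cells. They were selected from the regions found with the Abcam antibody on chromosomes 1 to 22 and X as those at least 4000 bp wide that overlapped a region found with the CST antibody by 1 bp or more, stayed outside the 1 kb on either side of every annotated TSS of a protein-coding gene, and overlapped no H3K4me3 region. Of 37501 Abcam regions, 957 (2.55%) were at least 4000 bp wide. Of these, 956 overlapped a CST region, 626 of the 956 were away from protein-coding TSSs, and 575 of the 626 carried no H3K4me3 region. The 575 members made up 2.77% of the 20731 shared distal regions without H3K4me3, and the other 20156, all under 4000 bp wide, are called narrower regions below. Width, antibody overlap, TSS position and H3K4me3 chose the members, so their values are given as a description.

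RT112 is an established human line from a transitional cell carcinoma of the bladder, which the study treated as wild type for ARID1A. Chromatin was profiled by CUT&RUN, a method in which an antibody brings a nuclease to the protein of interest and the DNA fragments released there are sequenced. There were 4 groups of 3 replicates: ARID1A with the Abcam antibody, ARID1A with the CST antibody, the active-promoter mark H3K4me3, and IgG. The region lists held positions only and were merged over the 3 replicates of a group, so depth, signal height and replicate error are unknown, regions could be ranked by width alone, and IgG regions were not analysed here. Intervals in parentheses after shares are exact 95% binomial intervals. They take regions and genes to be independent and reflect counting error alone, and no comparison below is over replicates.

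ARID1A is a DNA-binding subunit of the SWI/SNF (BAF) complex, which uses ATP to slide or evict nucleosomes and keeps many enhancers open. Enhancers are distal DNA elements that raise transcription of genes that can lie far away, and sequence-specific factors such as AP-1, a dimer of FOS and JUN family proteins, bind them and can recruit SWI/SNF. Broad stretches of open enhancer chromatin, or several enhancers close together, are known from genes that define a cell's identity.

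The AP-1 word, TGACTCA on either strand (TGAGTCA on the other), was the word that stood out most in the members, and the sequences below show how it lies in the widest of them. For 15 of the 20 widest members, the leftmost 200 bp window with the most AP-1 words was taken. Most of these windows held only 1 AP-1 word and are not printed. The 7 windows with 2 or more words are printed, 5′ to 3′ on the plus strand of hg38, each named by the nearest protein-coding gene, with the AP-1 words in capitals.
ITGB6 (chr2:160224102-160224301): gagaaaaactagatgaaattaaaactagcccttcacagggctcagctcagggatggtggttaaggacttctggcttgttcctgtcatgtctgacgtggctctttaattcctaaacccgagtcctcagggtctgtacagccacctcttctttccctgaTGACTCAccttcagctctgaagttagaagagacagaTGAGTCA
ARHGAP26 (chr5:142822069-142822268): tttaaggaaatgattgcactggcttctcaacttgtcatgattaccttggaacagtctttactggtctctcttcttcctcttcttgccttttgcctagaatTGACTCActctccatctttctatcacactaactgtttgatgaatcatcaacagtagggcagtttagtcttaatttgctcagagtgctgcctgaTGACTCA
TIMP3 (chr22:32695623-32695822): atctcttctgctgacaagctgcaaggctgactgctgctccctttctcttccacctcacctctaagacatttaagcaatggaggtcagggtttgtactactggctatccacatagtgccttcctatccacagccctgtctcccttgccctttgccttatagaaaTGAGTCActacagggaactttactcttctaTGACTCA
WEE1 (chr11:9566081-9566280): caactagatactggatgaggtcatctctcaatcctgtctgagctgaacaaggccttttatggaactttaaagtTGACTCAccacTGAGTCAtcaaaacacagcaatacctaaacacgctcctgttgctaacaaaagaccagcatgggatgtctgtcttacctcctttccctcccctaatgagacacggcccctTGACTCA
SEMA5A (chr5:9562131-9562330): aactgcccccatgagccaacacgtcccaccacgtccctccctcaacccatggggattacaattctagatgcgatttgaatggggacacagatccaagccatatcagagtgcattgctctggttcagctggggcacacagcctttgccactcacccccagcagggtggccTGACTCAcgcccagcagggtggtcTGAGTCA
HS3ST1 (chr4:11548830-11549029): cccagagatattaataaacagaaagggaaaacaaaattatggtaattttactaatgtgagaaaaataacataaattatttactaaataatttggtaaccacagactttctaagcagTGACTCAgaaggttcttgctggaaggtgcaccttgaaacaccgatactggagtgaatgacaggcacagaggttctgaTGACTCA
TRIO (chr5:14268257-14268456): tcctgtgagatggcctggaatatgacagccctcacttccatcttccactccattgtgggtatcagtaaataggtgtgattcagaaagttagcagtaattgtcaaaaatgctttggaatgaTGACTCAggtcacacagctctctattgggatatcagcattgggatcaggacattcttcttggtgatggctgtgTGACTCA

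In the window near WEE1, the kinase that holds back CDK1 and entry into mitosis, 3 AP-1 words lay within 200 bp. The other 6 printed windows held 2 words each. All were cut from members between 7839 bp (near TRIO) and 11588 bp (near ITGB6). The windows near DUSP5, JAG1, GGTLC1, MPRIP, CALML3, RIPK4, IGFL2 and KLF6 held 1 word each, so the printed windows do not stand for all that were taken. No window was taken near TCIM, HEY1, PAG1 and GRHL2, nor near H3-7, whose member held no AP-1 word. The windows are the densest part of each member and do not stand for its average, which is given further on.

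The widest member lay near ITGB6, the gene of the integrin subunit that pairs with the alpha-v subunit on epithelial cells. It spanned chr2:160219448-160231035, 11588 bp between genes and 19135 bp from the nearest TSS, and a single CST region covered 97.2% of it. The second, 11495 bp, lay in a repeat array on chromosome 1 and is described with the tandem repeats below. The third lay 80163 bp from a TSS of DUSP5, a phosphatase of nuclear ERK. It spanned chr10:110407153-110417744 (10592 bp) and lay wholly within 1 CST region. The fourth, chr5:142817418-142827794 (10377 bp), lay in an intron of ARHGAP26, 46299 bp from its nearest TSS. The fifth, 10294 bp, was nearest to TIMP3, an inhibitor of metalloproteinases, but lay 100483 bp from its TSS in an intron of SYN3.

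Further down the 20 widest stood members near a ligand and a target gene of Notch and near epithelial transcription factors. A member of 9796 bp had JAG1, a Notch ligand, as its nearest gene at 47849 bp, and lay in an intron of SLX4IP. A member of 8198 bp lay 25059 bp from HEY1, a transcriptional repressor that Notch induces. The epithelial transcription factors KLF6 and GRHL2 had members of 7821 bp and 7809 bp, at 19685 bp and at 109030 bp from a TSS. The remaining members of the 20 were nearest to GGTLC1, MPRIP, CALML3, TCIM, RIPK4, IGFL2, WEE1, SEMA5A, HS3ST1, PAG1 and TRIO, with widths of 7839 to 9473 bp. Among these, RIPK4 is a kinase of epidermal differentiation, CALML3 a calmodulin-like protein of epithelia and HS3ST1 a sulfotransferase of heparan sulfate.

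**Figure D1:**
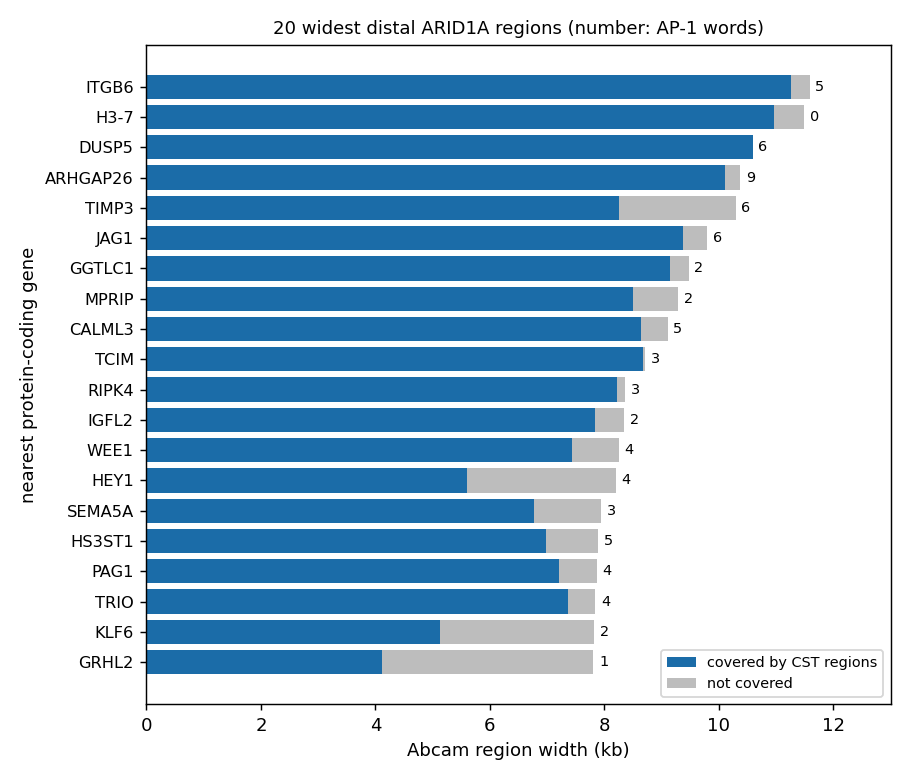
Width of the 20 widest members in kb, from the Abcam list, with the part covered by CST regions in blue and the rest in grey; rows are named by the nearest protein-coding gene and the number at each bar is the count of AP-1 words. Widths ran from 7809 bp near GRHL2 to 11588 bp near ITGB6, and CST covered between 52.8% (GRHL2) and 100% (DUSP5).

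Members had a median width of 4768 bp (middle 50%: 4309 to 5464 bp), against 1548 bp in narrower regions. The 4000 bp minimum does not fall at a gap. The 5 members just inside it lay near RIN2 and ABHD11 (4000 bp each), B3GNT2 (4002 bp), MED4 (4003 bp) and ERRFI1 (4006 bp). The 5 regions just outside lay near FOSL2 (3998 bp), DNAH14 and CFAP418 (3997 bp each), and C11orf91 and KLHDC7B (3995 bp each).

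How far the CST antibody marked the same bases was not used beyond a 1 bp overlap. CST regions covered a median of 89.6% of a member (range 21.9 to 100%) and 86.4% of a narrower region. In 278 members (48.3%, 44.2 to 52.5%) CST covered at least 90% of the bases, and in 17 (2.96%) under 50%. A single CST region overlapped 393 members, 2 CST regions overlapped 168 and 3 overlapped 14, so that 1 Abcam region matched several CST regions in 31.7% of members. The widest CST region over a member had a median width of 4002 bp, and 288 members (50.1%, 45.9 to 54.2%) overlapped a CST region that was itself at least 4000 bp wide, against 321 of 20156 narrower regions (1.59%). A wide Abcam region can meet more CST bases by its width alone, so these counts describe the overlap and carry no test.

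Members resembled narrower regions in distance to a protein-coding TSS, but not in every measure of position. The midpoint lay in an intron in 227 members (39.5%, 35.5 to 43.6%), against 43.4% of narrower regions, in an exon in 12 (2.09%, against 2.79%) and between genes in 336 (58.4%, 54.3 to 62.5%, against 53.8%). Counting a member as exonic when any base touched an exon lowered the share in introns to 28.9%. The distance to the nearest protein-coding TSS had a median of 33966 bp in members (interval 29312 to 38571 bp) and 33920 bp in narrower regions. It was at most 10000 bp in 120 members (20.9%, against 20.5%) and over 100 kb in 138 (24.0%, against 23.8%). The farthest member lay 766949 bp from a TSS. Regions with H3K4me3 were nearer to members, at a median of 54711 bp (45376 to 65846 bp), than to narrower regions, at 73558 bp (71778 to 75541 bp). A TSS of a long non-coding RNA gene, which the selection did not use, lay in 56 members (9.74%, 7.44 to 12.46%) and in 4.0% of narrower regions. The median member was 3.08 times as wide as the median narrower region, and the part of width in this difference was not tested.

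Members lay among other ARID1A regions. Within 50 kb of the midpoint, members had a median of 4 other shared ARID1A regions, promoters included, and narrower regions had 2. No other shared region lay that near in 22 members (3.83%, 2.41 to 5.74%), against 14.7% of narrower regions, and 5 or more did in 250 members (43.5%, 39.4 to 47.6%), against 22.1%.

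**Figure D2:**
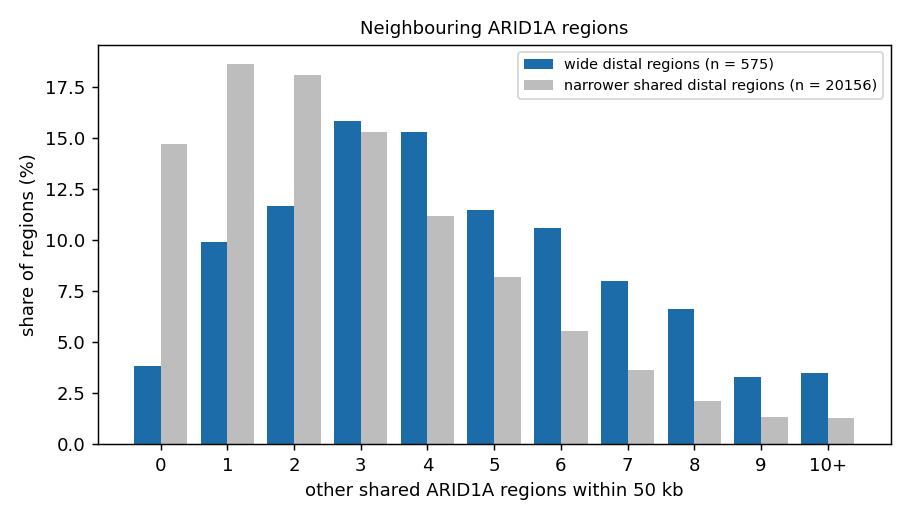
Share of regions (%) by the number of other shared ARID1A regions within 50 kb of the midpoint, for the 575 members (blue) and the 20156 narrower regions (grey). At 3 neighbours and above the share is higher in members, and at 0 it is 3.83% in members and 14.7% in narrower regions.

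Members themselves were mostly scattered. When members under 12500 bp apart were joined, 51 (8.87%, 6.68 to 11.5%) fell into 24 clusters, 21 of 2 members and 3 of 3, and 524 stood alone. The median distance to the next member was 406872 bp, with 168 members (29.2%) within 100 kb of another and 351 (61.0%) within 1 Mb. The cluster with the longest span held 3 members over chr20:50411757-50442062 (30306 bp), nearest to PTPN1, which encodes a tyrosine phosphatase of insulin and growth factor signalling. Its members lay 68259 to 93812 bp from a TSS, and 6 shared Abcam regions lay inside. A cluster of 3 members near YWHAZ, a 14-3-3 protein, and ZNF706 spanned 29259 bp on chromosome 8 and held 13 AP-1 words. The third cluster of 3, near CD93, a surface receptor known from endothelial and myeloid cells, spanned 15512 bp. In that cluster a CST region ran across both of the right-hand members, which were separate in the Abcam list.

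The next clusters, of 2 members each, began with the ITGB6 pair, whose members summed to 15925 bp over a span of 24030 bp. The pair that held the DUSP5 member summed to 15809 bp over 22769 bp, with SMNDC1 as the nearest gene of its left member. Pairs near BHLHE40, a transcription factor of the circadian clock, UACA, TMC1, OPA1, the GTPase that fuses mitochondrial inner membranes, and RAI14 spanned 16016 to 21398 bp. The AP-1 word was found once in the BHLHE40 pair and 7 times each in the UACA and TMC1 pairs.

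Chromosome 8 held more members than its share of distal regions. Of its 1355 shared distal regions, 70 were members (5.17%, 4.05 to 6.48%), against 505 of 19376 on the other chromosomes (2.61%, 2.39 to 2.84%). Chromosome 20 followed with 36 of 803 (4.48%, 3.16 to 6.15%), and X was lowest with 4 of 377 (1.06%, 0.290 to 2.69%). The shared distal regions of all widths had a median of 1713 bp on chromosome 8, 1635 bp on chromosome 20 and 1483 bp on X. Of the 4 windows of 1 Mb with 5 or more members, 3 were on chromosome 8: 8 members at 127 to 128 Mb, near POU5F1B and MYC, 6 at 101 to 102 Mb, near YWHAZ, ZNF706 and GRHL2, and 6 at 125 to 126 Mb, near NSMCE2 and TRIB1. The fourth, with 5 members, was at 81 to 82 Mb of chromosome 16, near PKD1L2, BCO1, CMIP and PLCG2. The lists carry no signal, so the number of reads on this chromosome is not known.

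Assigning each member to the protein-coding gene with the nearest TSS gave 469 genes, 2.39% of the 19618 protein-coding genes annotated. A member lay within 100 kb of a TSS of 932 genes (4.75%). The nearest gene is a matter of position and says nothing about which gene a region acts on. Of the 469, 388 were nearest to 1 member, 59 to 2, 20 to 3, and 1 each to 4 and to 5. POU5F1B, a retrogene of the pluripotency factor OCT4, was nearest to 5 members, 17109 to 282568 bp away, with neither H3K4me3 nor both ARID1A antibodies at its promoter. MYC, the growth-promoting transcription factor in the same part of chromosome 8, was nearest to 3, at 63324 to 110917 bp, and carried both at its promoter. The 4 members nearest to H3-7, a histone H3 gene, lay at least 638298 bp from it, in the repeat array. The other genes among the 10 with most members had 3 each: TCIM, JAG1, HS3ST1, GRHL2, OPA1, TRIB1, a pseudokinase that guides protein degradation, and NSMCE2, a SUMO ligase. All 7 had H3K4me3 and both antibodies at a promoter.

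Promoters of the nearest genes, which the selection did not use, were more often marked. H3K4me3 lay at a promoter of 343 of the 469 nearest genes (73.1%, 68.9 to 77.1%), of 58.8% of the 6856 genes nearest to narrower regions (57.6 to 59.9%) and of 53.1% of all protein-coding genes. Both ARID1A antibodies marked a promoter in 310 (66.1%, 61.6 to 70.4%), in 48.8% of genes nearest to narrower regions and in 38.2% of all genes. Of the 469 genes, 431 (91.9%) were also nearest to a narrower region, as were 34.9% of all genes.

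Of 17 gene lists, that of epithelial transcription factors had the highest share of genes nearest to a member. Of 31 such genes, 10 (32.3%, 16.7 to 51.4%) were nearest to a member, against 2.39% of all genes: GRHL2 and GRHL3, grainyhead factors that maintain epithelial junctions, KLF4, KLF5 and KLF6, HES1, RUNX1 and RUNX2, SOX4 and TP63, the p63 factor of basal epithelial cells. The widest after KLF6 and GRHL2 were a member of 5628 bp in an intron of RUNX2, 190785 bp from its TSS, and one of 5015 bp near GRHL3. These genes also lay near many narrower regions. Of the 351 shared distal regions nearest to a gene of the list, 17 were members (4.84%, 2.85 to 7.64%), against 2.77% (2.55 to 3.01%) over all genes. By regions it stood below the lists of junction, integrin, YAP target and ERK feedback genes, and below the short neuronal list. By genes with a member within 100 kb of a TSS it was at 16.1%, against 4.75% of all genes, below the junction, integrin, YAP target and ERK lists (22.7 to 33.3%).

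Genes of ERK feedback came next by genes nearest to a member. Of 22 ERK feedback and MAPK genes, 5 (22.7%, 7.82 to 45.4%) were, against 2.39% of all genes. They were DUSP5, DUSP6, a cytoplasmic ERK phosphatase (6412 bp, 17668 bp from its TSS), IER3 (6224 bp), PHLDA1 with 3 members, and MAPK13. By regions, 8 of 162 (4.94%, 2.16 to 9.50%) were members, with an interval that holds the 2.77% over all genes. Of 32 receptor tyrosine kinases and ligands, 4 (exact interval 3.51 to 29.0%) were, and by regions 5 of 151 (3.31%, 1.08 to 7.56%): FGFR2 (6030 bp, 187622 bp away, 6 AP-1 words), MET (4848 bp, in its own intron), VEGFA (4676 bp) and FGFR3 (4634 bp, 13579 bp away). FGFR3 is a receptor often altered in bladder cancer. Of 26 genes of class I PI3K and its regulators, the pathway the study is about, 1 (3.85%, 0.0973 to 19.6%) was nearest to a member. That gene was IRS1, an adaptor of the insulin receptor, with 2 members, the widest 371332 bp from its TSS. By regions, 2 of 83 (2.41%, 0.293 to 8.4%) were members for this list, against 2.77% over all genes. Chosen after its values were seen, a member of 4725 bp (chr1:46179408-46184132) in an intron of TSPAN1 lay 2920 bp from a TSS of P3R3URF-PIK3R3, a readthrough gene, which was its nearest gene and is not on the list. The same member lay 46372 bp from a TSS of PIK3R3, which encodes a regulatory PI3K subunit, and PIK3R3 was the 1 listed gene with a member within 100 kb of a TSS. CST covered 86.3% of it, and it held no AP-1 word.

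Several adhesion genes had a member within 10 kb of a TSS. Of 26 integrin, laminin and hemidesmosome genes, 5 (19.2%, 6.55 to 39.4%) were nearest to a member. ITGA6, a laminin receptor subunit of hemidesmosomes, had one of 6072 bp in its intron, 9660 bp from a TSS, and ITGB1 one of 4079 bp. ITGB6 and DST were also among them. Of 27 junction and desmosome genes, 5 (18.5%, 6.30 to 38.1%) were, among them DSG2, a desmosomal cadherin (5992 bp, 6060 bp away), JUP, plakoglobin (5130 bp, 5029 bp away), NECTIN1 and CDH1, E-cadherin. By regions, 6 of 100 (6.0%, 2.23 to 12.6%) and 6 of 96 (6.25%, 2.33 to 13.1%) were members in these 2 lists, with intervals that hold the 2.77% over all genes.

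Of 29 TGF-beta, BMP and SMAD genes, 5 (17.2%, 5.85 to 35.8%) were nearest to a member, against 2.39% of all genes, and 2 (6.90%) had one within 100 kb, against 4.75%: TGFBR2, the type II receptor (7283 bp, 257670 bp away, 7 AP-1 words), TGIF1, SMAD3 (5492 bp in its intron), SMAD6 and BMP2, with 3 members. Of 28 luminal urothelial markers, 4 (14.3%, 4.03 to 32.7%) were: KRT7, a keratin of simple and transitional epithelia (5027 bp, 14853 bp away), GRHL3, KLF5 with 3 members, and FGFR3. Of 22 basal and squamous markers, ITGA6 and TP63 were (9.09%). Of 17 YAP and TEAD target genes, F3, ASAP1 with 3 members, and NT5E were (17.6%), of 28 AP-1 and TEAD factors and cofactors TEAD1 and TEAD3 (7.14%), and of 25 NF-kB, cytokine and interferon genes CXCL2 and IL1A (8.0%). By regions, members were 8 of 172 (4.65%, 2.03 to 8.96%) for TGF-beta genes, 6 of 143 (4.20%, 1.56 to 8.91%) for luminal markers, 5 of 96 (5.21%, 1.71 to 11.7%) for YAP and TEAD targets, and between 2.47% and 3.30% for the basal, AP-1 and TEAD, and NF-kB lists. All of these intervals hold the 2.77% over all genes.

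For markers of cell types other than urothelium the lists are too short to be read against the 2.39% of all genes, which all their intervals hold. The same limit applies to the basal, AP-1 and TEAD, NF-kB and PI3K lists above, whose intervals for genes also hold it. None of 20 mesenchymal and fibroblast markers, 20 immune cell markers, 20 hepatocyte markers and 18 muscle markers was nearest to a member. Upper bounds of the exact interval were 16.8% for a list of 20 and 18.5% for 18. Of 20 neuronal markers, 1 was, MAP2, with a member of 4158 bp in its intron and no H3K4me3 at its promoter. That was 1 of 16 regions nearest to a neuronal marker (6.25%, 0.158 to 30.2%). Mesenchymal markers did have distal ARID1A regions, since 14 of the 20 were nearest to a narrower region, while 5 of the immune and 3 of the hepatocyte markers were.

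The members' base composition differed little from their surroundings. GC content had a median of 43.8% in members (43.2 to 44.4%), 43.1% in narrower regions and 42.2% in 583 flanks, which were pieces of the same length as a member, 2 kb outside it and touching no region. The ratio of CpG observed to expected was 0.207 in members, 0.197 in narrower regions and 0.212 in flanks, far below 1, the value of sequence not depleted of CpG.

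Words of 14 factors were counted on both strands, each beside a control word with the same letters in another order. Density is in words per kb, with exact Poisson intervals. The AP-1 word was found 1302 times in members, 0.446 per kb (0.422 to 0.470), against 0.148 per kb in flanks, 3.02-fold, while its control ACTCAGT was at 0.161 and 0.151 per kb, 1.07-fold. A member held a median of 2 AP-1 words and a narrower region 1. No word was found in 61 members (10.6%, 8.21 to 13.4%), against 36.7% of narrower regions, and 5 or more were found in 54 (9.39%, 7.13 to 12.1%), against 0.298%. The most, 10, were in a member of 6854 bp near ARSI, followed by 9 in the ARHGAP26 member and 7 each in members near PRSS2, TGFBR2 and MYC.

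Per kb, the AP-1 word was sparser in members than in narrower regions, at 0.446 against 0.554. Density was highest in the narrowest regions, at 0.818 per kb under 1000 bp and 0.574 for 1000 to 2000 bp. Regions of 3000 to 4000 bp were at 0.471 (0.450 to 0.4925) and members of 4000 to 5000 bp at 0.442 (0.410 to 0.475), with overlapping intervals. In the central 500 bp the word was present in 117 members (20.3%, 17.1 to 23.9%), in 39.1% of narrower regions and in 6.86% of flanks. For regions of under 1000 bp the central share was 47.3%, for 1000 to 2000 bp 41.8%, for 2000 to 3000 bp 31.2% and for 3000 to 4000 bp 19.7%. Members of 4000 to 5000 bp were at 21.6%, of 5000 to 6000 bp at 15.6% and of 6000 bp or more at 21.7%, with intervals that overlapped that of 3000 to 4000 bp. Above 3000 bp the shares showed no further steady fall, but these intervals are too wide to tell a plateau from a slower fall, and neither was tested. The control word was in the central 500 bp of 7.30% of members and 9.55% of narrower regions. To compare equal lengths, 4000 bp around each midpoint were also read, a comparison chosen after the data were seen and without the tandem-repeat regions described below. There the AP-1 word was denser around members, at 0.481 per kb (0.453 to 0.511) against 0.323 (0.319 to 0.327) around narrower regions, and the control was alike at 0.163 and 0.160. At least 1 AP-1 word lay in 87.8% of these windows around members and 75.2% around narrower regions, and 3 or more in 28.4% and 12.45%. Around a narrower region such a window runs past the region into its flanks.

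Within members the AP-1 words had no central peak. Over 10 equal parts, density was 0.25 per kb in the first and 0.25 in the last, and between 0.43 and 0.56 in the 8 parts between, with intervals that overlapped among the 8. The flanks were at 0.09 to 0.20 per kb in every part, about the level of the control word. The bases that the CST antibody also marked carried most of the words: 1219 within CST regions, 0.488 per kb (0.461 to 0.516), and 83 in the part of members outside them, 0.195 per kb (0.155 to 0.241). Of the uncovered bases, 76.4% (326 kb) lay beyond the outermost CST edge of a member and 100.4 kb between CST regions, so this difference and the lower density in the outer parts share bases.

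**Figure D3:**
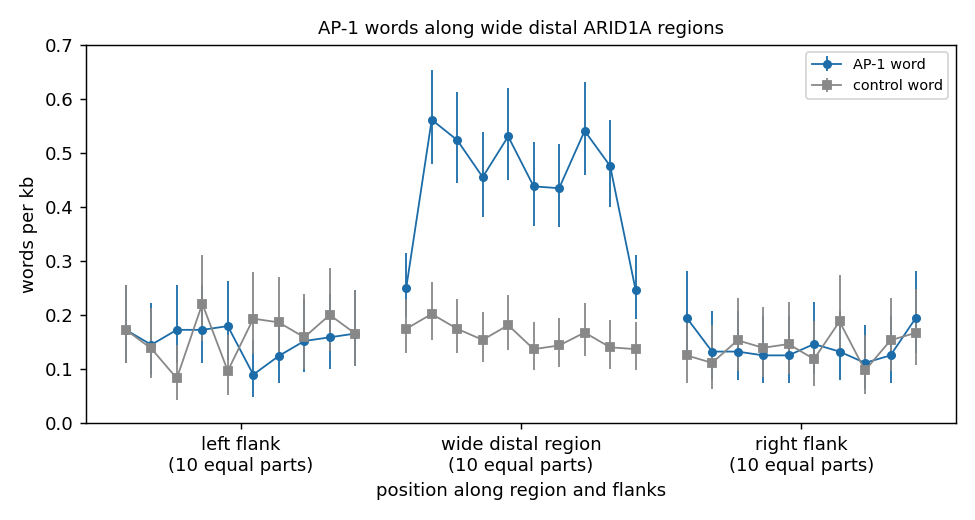
Words per kb in 10 equal parts of the members and of the flanks on either side, for the AP-1 word (blue circles) and its control word (grey squares); bars are exact 95% Poisson intervals and cover counting error only. The AP-1 word is at 0.25 per kb in the outermost parts of members, 0.43 to 0.56 in the rest and at most 0.20 in flanks.

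No other word reached the ratio of AP-1. Without the tandem-repeat members, TGTTTAC, bound by FOX factors, was 1.40-fold denser in members than in flanks, with its control at 0.90. It lay in the central 500 bp of 9.22% of members and 11.9% of narrower regions. CAGGAAG, of ETS factors, was at 1.25-fold (control 1.12) and lay in 18.4% and 19.3%. GCCNNNGGC, of AP-2 factors, was at 1.52-fold, but its control GGCNNNGCC was at 1.36. CCACACCC, of KLF factors, was at 1.07-fold, below its control CCCACACC at 1.5. AACCNGGTT, of grainyhead factors, was found 25 times, too seldom for a ratio of use, although 4 members lay nearest to GRHL2 or GRHL3. The word of GATA factors was AGATAA, that of RUNX factors was TGTGGTT, that of the p53 family was ACATGTC and that of PPARG with RXR was AAAGGTCA. Interferon regulatory factors were read as GAAANNGAA, the glucocorticoid receptor as ACANNNTGT and the core of the CTCF site as AGGGGGC. These 7 words lay between 0.93 and 1.28 times the flanks. A word match is a description of the sequence and not a bound site.

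**Figure D4:**
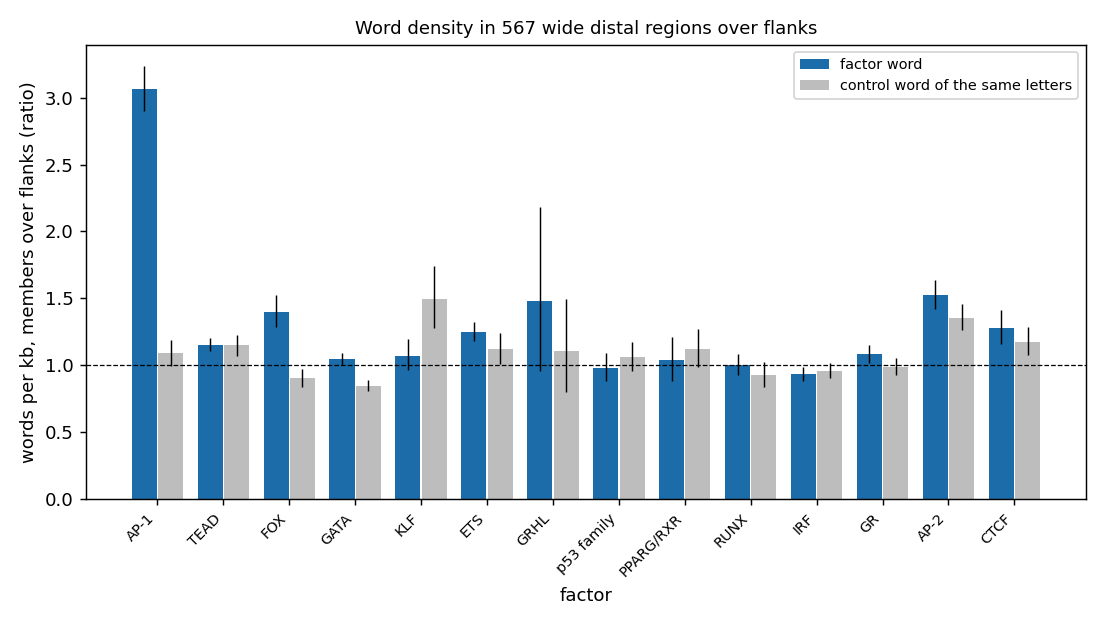
Ratio of words per kb in 567 members, without the 8 tandem-repeat members, to words per kb in flanks, for 14 factors (blue) and their control words (grey); bars are exact 95% Poisson intervals of the members' count over a fixed flank density. AP-1 is at 3.06 with its control at 1.09, and TEAD at 1.15 with its control at 1.15.

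The ratio of the TEAD word, GGAATG, to flanks depended on a few members. Over all 575 members the word was at 1.11 per kb against 0.609 in flanks, 1.83-fold, but 8 members in tandem repeats held 1232 of its 3249 matches. Without them, over the same flanks, the ratio was 1.15, the same as that of its control GTAAGG. In the 4000 bp around each midpoint, read as for AP-1 without tandem-repeat regions, the TEAD word was denser around members. It was at 0.709 per kb (0.674 to 0.744), against 0.635 (0.629 to 0.640) around narrower regions, and its control was at 0.296 and 0.294. The 8 tandem-repeat members were those in which under 60% of the overlapping 12-base words were distinct, a limit set after the data were seen. The lowest of the other 567 members was at 60.7%, and the median of all members was 99.4%. Of narrower regions, 56 (0.278%) were under the limit, against 1.39% of members. Stretches of 120 bp from members near DEFB115 and H3-7 are printed as examples, with GGAAT, a unit of some human satellite arrays, in capitals.
DEFB115 (chr20:31066107-31066226): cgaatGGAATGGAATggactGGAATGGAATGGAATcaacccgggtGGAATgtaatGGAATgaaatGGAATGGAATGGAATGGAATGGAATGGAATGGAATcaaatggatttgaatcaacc
H3-7 (chr1:143217667-143217786): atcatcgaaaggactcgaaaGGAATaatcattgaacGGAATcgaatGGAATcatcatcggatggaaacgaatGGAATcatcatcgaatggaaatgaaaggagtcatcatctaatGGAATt

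The printed 120 bp stretch near DEFB115 held 14 such units. That near H3-7 held 5, none of them side by side. The members near DEFB115, of 4710 bp and 7442 bp on chromosome 20, carried 387 and 664 TEAD words, 82.2 and 89.2 per kb, while no member outside the 8 exceeded 2.20 per kb. The 4 members near H3-7, of 4381 to 11495 bp between positions 143189846 and 143267668 of chromosome 1, carried 5.48 to 7.61 TEAD words per kb, no AP-1 word, and a CpG ratio of 1.48 to 1.57, against at most 0.513 in the members outside the 8. The member near SHCBP1 on chromosome 16 (4576 bp) had 13 TEAD words, 2 AP-1 words and a CpG ratio of 1.25. The member near USP14 on chromosome 18 (7017 bp) held no TEAD word and a CpG ratio of 0.271, so it was repetitive in another way. These 8 lay 45755 to 710207 bp from a protein-coding TSS. The authors removed reads that did not map uniquely, and whether IgG also gave regions in these repeats was not tested.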

How the data were processed

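RT112 cells were profiled by CUT&RUN with the Abcam and CST antibodies to ARID1A, with H3K4me3 and with IgG, in 3 replicates each. The authors trimmed reads with cutadapt, aligned them to hg38 (bwa-mem2), discarded duplicate (Picard) and non-uniquely mapping (samtools) reads, scaled replicates by E. coli spike-in reads, called peaks with SEACR and merged the replicates' peaks with bedtools. Tool versions are not given in the sources used here. SEACR's mode is relaxed in the methods but stringent by the lists' names, so the threshold is uncertain, and with it the width at which a region ends. By the methods, only a top fraction of the peaks was kept. Merging can join peaks of different replicates, so a region can be wider than any single replicate's peak. The 3 deposited lists hold chromosome, start and end, with no count, signal or score, so no depth can be given. Regions on other sequences (152 Abcam, 159 CST, 14 H3K4me3) were left out. Positions are printed counting from 1.

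Protein-coding TSSs came from GENCODE 44 and sequence from hg38. Computation used Python 3.11.15, pandas 2.3.3, NumPy 2.4.6, SciPy 1.17.1, pysam 0.24.0 and samtools 1.23.1, checked on simulated regions and sequences with known answers. Medians carry order-statistic and shares Clopper-Pearson 95% intervals. No test was made, since 1 merged list per antibody leaves no replicates. Of 1150 possible flanks, 583 touched no region. Genes named were the nearest of the 20 widest members, of the 10 largest clusters and of the 5 regions on each side of the minimum, the 10 with most members, and up to 4 per list by width, some of which are not reported here; the other list genes given, the members with most AP-1 words, the genes of 1 Mb windows and the repeat members were chosen after their values were seen. Members, gene lists and words were chosen with earlier results of these data known.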

Additional observations from a re-analysis of the deposited data

How the results depend on the processing

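Each of 8 summary values was recomputed under alternatives, giving 92 values, of which 72 stayed within 1.5 times (counts) or within the 95% interval of the value reported (shares and medians). The minimum width set the number of members. At 3000 bp there were 1749 members nearest to 1244 genes, 16.9% of them in clusters, with a median CST coverage of 87.3% and a median of 0.384 AP-1 words per kb. At 5000 bp there were 214 members nearest to 192 genes, 4.67% of them in clusters, with a median of 0.387 AP-1 words per kb. At 4000 bp this median over regions was 0.420, and it is not the pooled density of 0.446 per kb given above. Pooled densities by width were 0.471 per kb for 3000 to 4000 bp and 0.442 for 4000 to 5000 bp. They were 0.456 for 5000 to 6000 bp and 0.444 for 6000 bp or more. With a width of 4000 bp asked of both antibodies, 288 members nearest to 250 genes were left, with a median CST coverage of 95.4%. With an overlap of at least 50% of both regions, 6.58% of members were in clusters and coverage was 91.6%. With widths taken from the CST list, Abcam regions covered a median of 93.6%, and with Abcam regions under 500 bp apart joined, CST covered 84.9%. A stitching distance of 5 kb put 4.70% of members in clusters and one of 50 kb 21.9%. In the central 1000 bp the median was 0 AP-1 words per kb, and counting any overlap with an exon left 28.9% of members in introns. The cause of these shifts was not tested, other than that a lower minimum admits more regions. Promoter windows of 500 bp and 3 kb, TSSs of all annotated genes and, added after seeing the data, leaving out the tandem-repeat members or chromosome 8 moved none of the 8 values beyond these limits.

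No paired analysis was possible because the lists were merged over replicates, and for the same reason no run without a replicate was made. The alternative without repeat-masked bases was not run: the reference used carries no masking. Depth, signal height and IgG regions are unknown here.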
